A study of Canis lupus familiaris with 8 samples.

Results

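CXCR3+ CCR9+ CD4 T cells were examined among blood T cells of 4 healthy Beagles, which the study had sorted by flow cytometry for the TCRαβ receptor. The cells were selected on measured values: a cell was a member if it held at least 1 unique molecular identifier (UMI, the tag of 1 captured RNA molecule) of CD4, CXCR3 and CCR9 and none of CD8A, KLRK1 and FOXP3. Of 31909 cells that passed the quality limits, 13247 carried CD4 and no CD8A, and 604 of these were members. The other 12643 CD4+ CD8A-negative cells, called other CD4 cells here, served as the comparison. The only female was dog 1, aged 5 years. The males were dogs 2 and 3, both aged 7 years, and dog 4, aged 9 years. The labels name no treatment, and the study's methods give routine vaccinations for all dogs. Age and sex could not be told apart from the dog. The T cells had been frozen before 10x 5′ transcriptome and V(D)J libraries were made, with 1 library of each kind per dog.

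CXCR3 binds the interferon-inducible chemokines CXCL9, CXCL10 and CXCL11 and is a usual mark of T helper 1 (Th1) cells, which secrete interferon gamma. CCR9 binds CCL25, a chemokine of small intestinal epithelium and thymus, and together with the integrin α4β7 it guides lymphocytes to the gut. The α4 chain can pair instead with β1, which gives an integrin for other tissues, and CCR7 brings naive and central memory cells into lymph nodes.

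The members were unevenly spread over the dogs. Dog 1 held 19, dog 2 held 249, dog 3 held 48 and dog 4 held 288, so that 47.7% of all members came from dog 4. As a share of CD4+ CD8A-negative cells this was 0.519% in dog 1 (95% exact binomial interval 0.313 to 0.810), 6.86% in dog 2 (6.06 to 7.73), 1.77% in dog 3 (1.31 to 2.34) and 8.88% in dog 4 (7.92 to 9.91). The mean over dogs was 4.51% ± 4.00 (SD, n = 4). These intervals cover counting error only, and those of dogs 1 and 3 lay below those of dogs 2 and 4. The order of the dogs was the same when at least 2 UMIs each of CXCR3 and CCR9 were asked for, which left 104 cells and a mean share of 0.777% ± 0.754, and after random thinning of each cell to a depth of 2000 UMIs, which gave 1.40% ± 1.29 against 4.78% ± 4.31 in the same cells without thinning.

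**Figure D1:**
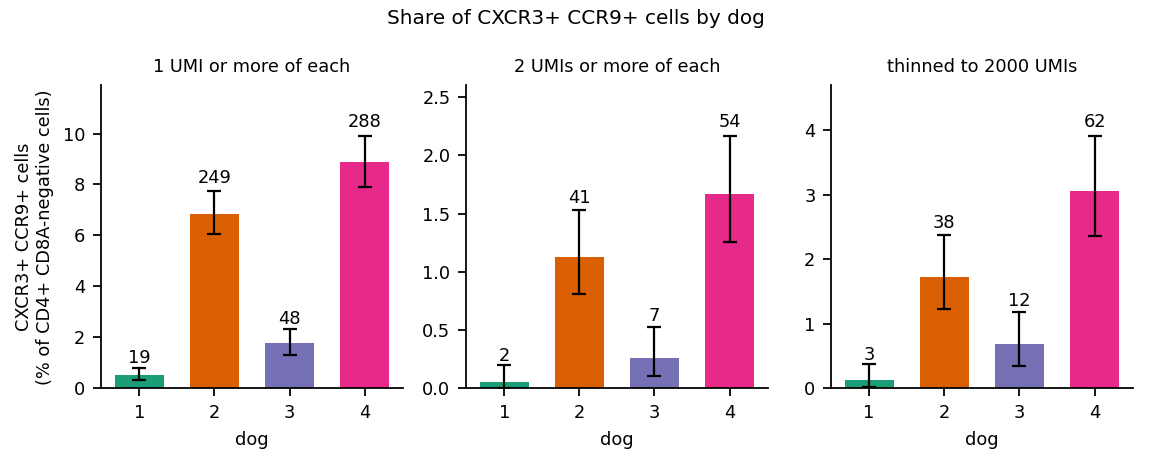
Share of CXCR3+ CCR9+ cells among CD4+ CD8A-negative cells (y axis, %) in dogs 1 to 4 (x axis) under 3 versions of the rule, with exact 95% binomial intervals and the number of member cells above each bar. The y axes differ between panels. Dogs 2 and 4 exceeded dogs 1 and 3 in every panel, with 249 and 288 members against 19 and 48 in the left panel.

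Most members lay close to the limits of the rule. CXCR3 was read from a single UMI in 66.6% of members and CCR9 in 51.5%, and 213 members had 1 UMI of both. Just outside, 923 cells differed only in having 1 UMI of CXCR3 and none of CCR9, 468 only in having 1 UMI of CCR9 and none of CXCR3, and 121 cells with both receptors had 1 UMI of KLRK1. Another 288 cells carried both receptors with neither CD4 nor CD8A, KLRK1 nor FOXP3. Members had more RNA than other CD4 cells, with a median of 5012.5 against 3910 UMIs, and a deeper cell is more likely to show a UMI of any gene. For scale, 11.8% ± 9.19 (SD, n = 4) of CD4 cells with CCR7 and LEF1, both marks of naive cells, held a CXCR3 UMI and 9.49% ± 8.69 a CCR9 UMI, at a mean median depth of 4119 UMIs against 5026 in members. This set of 4204 cells contains 96 members, and without them the shares were 9.25% ± 7.10 and 6.90% ± 6.11. Central memory cells also carry CCR7, so the set may hold cells that express these receptors. Single UMIs from free RNA therefore cannot be told apart from expression in any 1 cell.

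CCR9 was seen more often in cells with CXCR3 than in cells without it. Among CD4 cells without KLRK1 and FOXP3, CCR9 was seen in 8.30% of CXCR3+ and 1.51% of CXCR3-negative cells of dog 1. The shares were 44.8% and 11.4% in dog 2, 16.4% and 6.90% in dog 3, and 37.1% and 19.0% in dog 4. The odds ratios were 5.89, 6.33, 2.64 and 2.51 for dogs 1 to 4. Within 4 ranges of UMIs per cell the ratio stayed above 1 in every dog and range, except for dog 1 between 3000 and 4500 UMIs, where a single cell held both (0.987). This is a description of the genes that chose the members and was not tested.

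Cells of the 4 libraries shared between 81 and 113 barcodes per pair of libraries. Of the members, 19 had a barcode that also occurred in another library, and in no pair were both cells members. More than 1 productive TRB rearrangement, a mark of doublets, was found in 2.08% ± 1.40 of members with a TRB and 3.83% ± 0.889 of other CD4 cells.

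Markers of other cell types were near 0 in members with 1 exception. No erythroid UMI was found, monocyte genes gave 3 UMIs in all (CSF1R, LYZ and S100A12 at 0), platelet genes 3 (PPBP at 0), and NK or gamma delta T cell genes 15, all from FCER1G, with KLRF1 and NCR1 at 0. The last list summed to 2.71 ± 3.35 UMIs per 1000000 UMIs of the sum (CPM, mean ± SD) in members and 0.914 ± 0.374 CPM in other CD4 cells, and its part in the results was not tested. The B cell list of 6 genes summed to 8559 ± 730 CPM in members and 9772 ± 575 in other CD4 cells. Of its 26847 UMIs in members 26833 were CD79A, while CD79B, MS4A1 and PAX5 were at 0. The 4 detected proliferation genes, led by MKI67, summed to 295 CPM in dog 1, 16.6 in dog 2, 213 in dog 3 and 11.03 in dog 4, against 47.6, 48.9, 29.8 and 39.4 in other CD4 cells. Dogs 1 and 3 thus lay above and dogs 2 and 4 below their comparison. Members held 121 such UMIs in all, and dogs 1 and 3 had only 19 and 48 members. How many cells supplied these UMIs is not given here, and the part of proliferating cells in the results was not tested.

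To compare expression, UMIs were summed per dog over members and over other CD4 cells, and the 2 sums of a dog were compared within that dog by edgeR's quasi-likelihood test with Benjamini-Hochberg adjustment. The 6 genes of the rule were left out. The member sums held 111977, 1267606, 239126 and 1450624 UMIs for dogs 1 to 4, so that in dog 1 a single UMI equals 8.93 CPM. Of 9485 genes tested, 224 (2.36%) were higher and 255 (2.69%) lower in members at an adjusted p under 0.05. With scaling to library size alone, 280 were higher and 194 lower. Without the replicate block, that is, without pairing the sums by dog, only 3 were higher and 15 lower. Leaving out dog 2 left 145 called genes and leaving out dog 4 left 306.

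Some genes of the Th1 program were higher in members. IFNG, IL18R1 and ALDOC came with the working name Th1-like as its markers, so their levels describe the cells and are no independent check of that name. Of 20 listed genes 19 were tested, and 5 were higher and none lower, among them IFNG and the chains IL12RB2, IL18R1 and IL18RAP of the receptors for interleukins 12 and 18. The median log2 fold change of the list was 0.01, beside -0.01 over all genes tested, so most of the list did not move with these 5. Between 4 and 6 genes were called when any 1 dog was left out, 2 by DESeq2 (IFNG and IL18R1) and 0 without the replicate block. IL18RAP lost its call without dog 2, dog 3 or dog 4.

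IFNG, the gene of interferon gamma, stood at 71.4, 21.3, 33.5 and 36.5 CPM in members of dogs 1 to 4 and at 2.83, 7.71, 6.13 and 16.9 CPM in other CD4 cells. It was higher in members of every dog and the groups did not overlap (log2 fold change 1.59, SE 0.27, adjusted p = 1.8e-05). The value of dog 1 rests on few molecules, since members held 96 IFNG UMIs in all. IFNG was seen in 13.7% ± 5.70 of members and 2.26% ± 1.67 of other CD4 cells, and after thinning in 6.17% ± 1.87 and 1.33% ± 0.952. In CD4 cells with CCR7 and LEF1, a set that may also hold memory cells, the share was 1.43% ± 1.5. It was 1.13% ± 1.11 without the members among them and 0.683% ± 0.691 in those with neither receptor.

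IL12RB2, the inducible chain of the interleukin-12 receptor, reached 89.3, 100, 87.8 and 135 CPM in members against 3.54, 38.5, 24.7 and 66.8 CPM. The groups did not overlap, and the gap was widest in dog 1 (log2 fold change 1.28, SE 0.14, adjusted p = 8.6e-11). IL18R1 was at 179, 151, 155 and 161 CPM in members, a narrow range, against 53.4, 82.3, 79.4 and 121 CPM (log2 fold change 0.70, SE 0.11, adjusted p = 1.8e-06). Its partner IL18RAP differed by 0.61 (SE 0.18, adjusted p = 0.031) with overlapping groups. TBX21, the transcription factor T-bet that directs the Th1 program, was at 17.9, 30.8, 29.3 and 44.1 CPM against 6.16, 18.2, 19.8 and 32.9 CPM. It was above in all 4 dogs but did not pass (log2 fold change 0.55, SE 0.18, adjusted p = 0.067). Over the alternatives its adjusted p ran from 0.0087 to 0.69, and it passed in 1 of 13, against other CD4 cells that also held no KLRK1 and no FOXP3 (log2 fold change 0.76). STAT4, which carries the interleukin-12 signal, gave -0.06 (SE 0.09).

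The members differed among themselves in these genes. Of IFNG, TBX21, IL12RB2, IL18R1 and the glycolytic enzyme gene ALDOC, 65 members (10.8%) showed none, 197 (32.6%) showed 1, 233 (38.6%) showed 2, 88 showed 3, 18 showed 4 and 3 showed all 5. Pooled over dogs, members with 1 UMI of both receptors held IFNG in 6.57% and those with 2 or more of either in 13.8%. Their median depths were 4710 and 5177 UMIs, and the difference was not tested. For IL18R1 the shares were 51.6% and 50.9%.

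Integrin and homing receptor genes split in direction. Of 19 listed genes 17 were tested, and 2 were higher (ITGB7 and ITGA4) and 6 lower (ITGB1, ITGA1, GPR25, CCR4, CCR10 and CXCR4), with a list median of -0.36 against -0.01 over all genes. The CCR10 call was lost without dog 2, among cells of 3000 to 6000 UMIs and against other CD4 cells without KLRK1 and FOXP3. DESeq2 called neither CCR10 nor CCR4. With at least 2 UMIs of each receptor ITGA4, ITGA1 and CCR10 were not called. Without the replicate block only ITGB1 and GPR25 were called. ITGB7, the β7 chain, was at 286, 372, 335 and 477 CPM in members and 141, 218, 221 and 339 CPM in other CD4 cells. It was higher within each dog although the groups overlapped (log2 fold change 0.60, SE 0.09, adjusted p = 6.0e-07). ITGA4, the α4 chain, was at 250, 170, 142 and 137 CPM against 92.9, 106, 88.5 and 113 CPM, with no overlap (log2 fold change 0.55, SE 0.10, adjusted p = 0.00015).

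ITGB1, the β1 chain, went the other way and by far more. It was at 8.93, 37.1, 16.7 and 38.6 CPM in members against 168, 300, 290 and 378 CPM, so that the mean was 11.2 times lower in members (log2 fold change -3.28, SE 0.13, adjusted p = 5.3e-30). No member sum came near any other, and the call held under all 13 alternatives. A UMI of ITGB1 was seen in 5.37% ± 1.58 of members and 32.0% ± 7.11 of other CD4 cells. ITGA1, a chain that pairs with β1 to bind collagen, was lower too (log2 fold change -1.66, SE 0.26, adjusted p = 4.9e-06). The G protein-coupled receptor GPR25 was at 0, 11.8, 0 and 14.5 CPM against 56.4, 84.8, 84.0 and 128 CPM (log2 fold change -3.18, SE 0.19, adjusted p = 2.4e-21). CCR4, a receptor of skin-homing and Th2 cells, had 6 UMIs in all members (log2 fold change -2.92, SE 0.45, adjusted p = 3.1e-06). CCR10, another skin-homing receptor, had 1 UMI in members and stood at 6.11 ± 2.64 CPM in other CD4 cells. CXCR4 was lower by a smaller step (log2 fold change -0.72, SE 0.11, adjusted p = 7.4e-07).

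**Figure D2:**
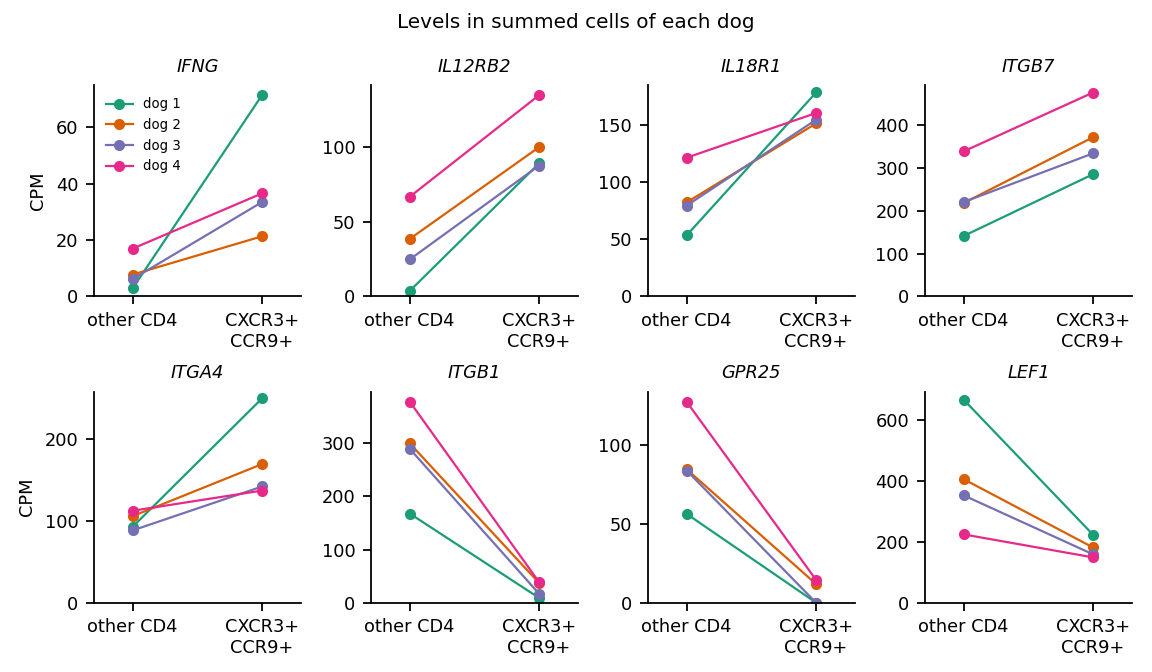
CPM (y axes) of 8 genes in the summed other CD4 cells and the summed CXCR3+ CCR9+ cells of each dog, joined by a line per dog. IFNG, IL12RB2, IL18R1, ITGB7 and ITGA4 were higher in CXCR3+ CCR9+ cells of all 4 dogs, whereas ITGB1, GPR25 and LEF1 were lower in all 4.

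Genes of naive and central memory cells were lower. Of 12 listed genes 10 are named in the gene table and were tested, and 8 were lower and none higher, with a list median of -0.66. LEF1, a transcription factor of naive T cells, was at 223, 181, 159 and 149 CPM in members against 667, 406, 353 and 225 CPM, without overlap (log2 fold change -1.06, SE 0.11, adjusted p = 8.4e-12). The inhibitor of differentiation ID3 (-1.06, SE 0.14) and CCR7 (-0.70, SE 0.10) were lower too, as was TCF7 (-0.40, SE 0.09). CCR7 was nevertheless seen in 29.0% ± 3.60 of members against 40.3% ± 9.57 of other CD4 cells, and 96 members held both CCR7 and LEF1. After thinning the CCR7 shares were 13.3% ± 1.79 and 27.5% ± 7.30. The survival receptor IL7R did not differ by more than its error (log2 fold change 0.01, SE 0.09, adjusted p = 0.98). Against only those other CD4 cells that held no CCR7, 5 genes of this list were still lower, CCR7 itself not counted. Without dog 2, 5 genes were lower, with TCF7, FOXP1 and SATB1 lost, and DESeq2 called 5.

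Genes of other helper lineages were mostly not called, or were lower. IL17A, the cytokine gene of Th17 cells, had no UMI in members. CCR6, a receptor of Th17 and mucosal cells, stood at 33.3 ± 15.8 against 21.4 ± 4.56 CPM and did not pass (log2 fold change 0.52, SE 0.18, adjusted p = 0.095). CCR6 was called higher without dog 3 and with at least 2 UMIs of each receptor. The same held against other CD4 cells that also held no KLRK1 and no FOXP3. GATA3, the factor of Th2 cells, was at 86.1 ± 35.1 against 111 ± 10.1 CPM (log2 fold change -0.31, SE 0.11, adjusted p = 0.096). Of the Th2 list 4 of 10 were tested and 1, LGALS3, was lower, a call lost without dog 4, and UMIs of IL4 and IL13 were absent from members. Of the Treg list 5 of 8 were tested and 3 were lower (IKZF2, IL10 and, in 3 of 4 dogs, TNFRSF18), and FOXP3 had been set to 0 by the rule in members only. Against other CD4 cells that also held no KLRK1 and no FOXP3, none of 4 tested Treg genes was called, and none was called without dog 2. IL10 had no UMI in members against 2.46 ± 0.510 CPM, which is at least 2.52-fold lower when 3 UMIs over the 4 member sums (0.977 CPM) are taken as the limit. Of the Tfh list 4 of 5 were tested: the transcriptional regulator TOX2 was higher (log2 fold change 1.04, SE 0.20) and the checkpoint receptor PDCD1 lower (-1.41, SE 0.34), the latter in 3 of 4 dogs. Neither was called without dog 2, nor was PDCD1 without dog 4. The medians of the Th2, Treg and Tfh lists were -0.32, -0.88 and -0.10.

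Summed levels of several cytotoxic genes were lower in members, which had been selected for no KLRK1. Of 13 listed genes 10 were tested, and 6 were lower (CCL4, GZMK, CTSW, KLRG1, KLRD1 and CCL5) and none higher, with a list median of -1.01. CCL4, a chemokine of activated cytotoxic cells, was at 8.93, 0.789, 0 and 17.2 CPM against 9.77, 21.7, 24.3 and 63.4 CPM (log2 fold change -2.29, SE 0.26, adjusted p = 1.3e-09). The granzyme gene GZMK was at 89.3, 11.8, 37.6 and 42.1 CPM against 23.7, 98.3, 141 and 157 CPM, so dog 1 went against the other 3 (log2 fold change -2.04, SE 0.18, adjusted p = 2.1e-13). The share of cells with a UMI, averaged over dogs, was 2.63% ± 2.82 of members and 3.02% ± 2.16 of other CD4 cells for CCL4. For GZMK it was 8.16% ± 3.96 and 8.61% ± 4.54, and for CCL5 8.23% ± 5.08 and 4.34% ± 1.97. These means hide differences between dogs. The CCL4 share was 0.402% of members against 2.19% in dog 2, and 0 of 48 against 80 of 2668 cells in dog 3. The GZMK share was 4.42% against 7.87% in dog 2 and 12.5% in both groups of dog 3. Dog 1 went the other way for both genes, with 1 CCL4+ and 2 GZMK+ cells among 19 members. In other CD4 cells 1484 CCL4 UMIs came from 364 cells, and in members 27 came from 16 cells. CCL5 was likewise lower by CPM in 3 dogs and higher in dog 1, where it reached 188 against 27.7 CPM, and its plain mean was therefore above that of other CD4 cells (64.7 against 51.3 CPM) while the fit put it lower (log2 fold change -0.95, SE 0.22, adjusted p = 0.0026). Against other CD4 cells that also held no KLRK1 and no FOXP3, 4 genes of the list were lower and 1 higher, and KLRD1 and CCL5 were near 0 on the log2 scale (0.032 and 0.027). Without dog 2, 3 genes were lower (CCL4, GZMK and KLRG1), without dog 4 it was 4, and DESeq2 called 1, CCL4.

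**Figure D3:**
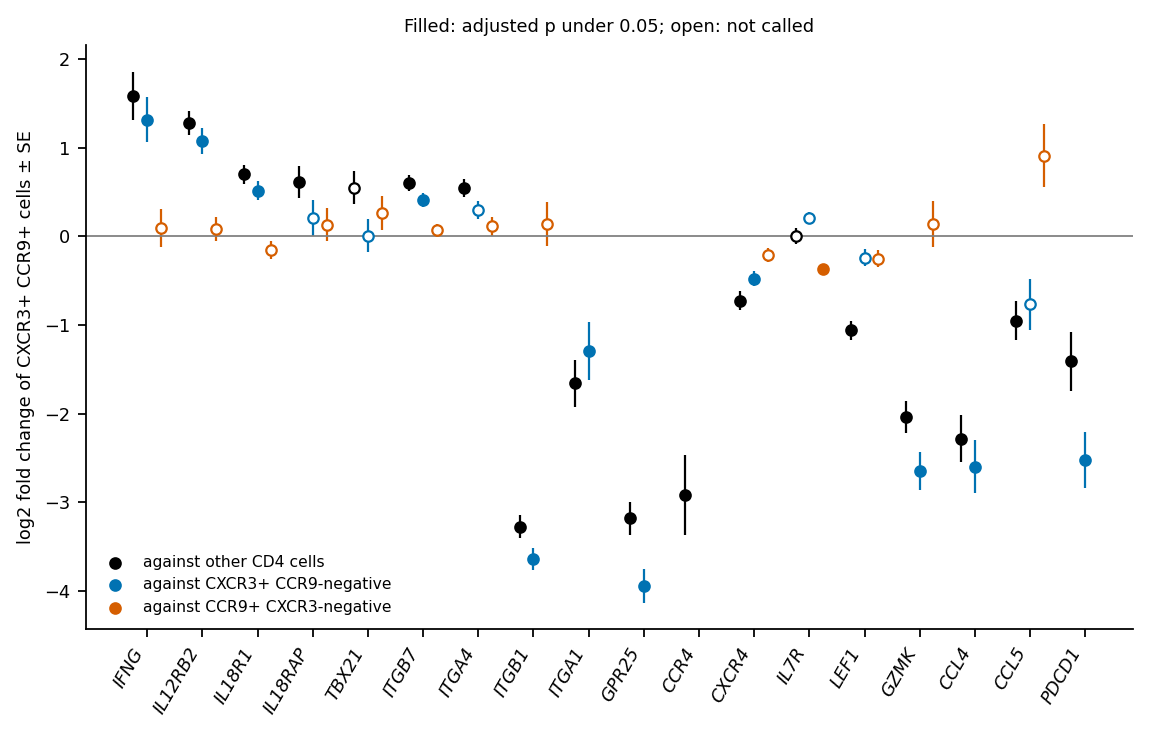
Log2 fold change ± SE (y axis) of CXCR3+ CCR9+ cells against other CD4 cells, CXCR3+ CCR9-negative CD4 cells and CCR9+ CXCR3-negative CD4 cells for 18 listed genes. Filled points passed an adjusted p of 0.05, open points did not, and a missing point was not tested. ITGB1 lay at -3.28 and -3.65 against the groups that include CCR9-negative cells and at 0.14 against CCR9+ cells, where the group means had the opposite sign (25.3 against 35.3 CPM).

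The remaining lists were compared in the same way. Of the cytoskeleton and S100 list 15 of 18 genes were tested and 6 were higher (ACTG1, ACTB, COTL1, ANXA6, S100A8 and SH3BGRL3), by log2 steps of 0.33 to 0.46, and none lower (list median 0.23). This count was 9 with scaling to library size alone, 3 without dog 3, and 2 without dog 2 or without dog 4. Of the T cell receptor signalling list 12 of 13 were tested and the adaptor LAT (0.63), the kinase CSK (0.30) and CD5 (0.27) were higher, with a list median of 0.19. None was called without dog 2, 1 without dog 3 and 5 of the list without dog 1. Of the interferon-stimulated and immunoproteasome list 15 of 19 were tested. BST2 (0.75, SE 0.09), IRF5, ISG20 and the proteasome activator PSME2 were higher, whereas ISG15 and IFI44 were lower in 3 of 4 dogs. Both lower calls were lost without dog 2, without dog 4 and with DESeq2, and PSME2 was lost without dog 2. Of the activation list 13 of 15 were tested: the costimulator ICOS (0.51, SE 0.10) and the MHC class II gene DLA-DQA1 (0.34, SE 0.09) were higher, and the early response genes FOS (-0.52, SE 0.10), FOSB and NR4A1 were lower. DLA-DQA1 lost its call without dog 2 or dog 3, and FOSB without dog 1 or dog 4. Of the glycolysis list 11 of 17 were tested. ALDOC was at 89.3, 142, 109 and 185 CPM in members against 56.1, 85.5, 90.5 and 130 CPM, higher in each dog with overlapping groups (log2 fold change 0.54, SE 0.10, adjusted p = 0.00012), a call lost without dog 2, and the glucose transporter SLC2A3 was lower (-0.89, SE 0.13). The medians of these last 3 lists were 0.08, 0.00 and 0.11.

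Further genes, listed or not, were named by rank of fold change among called genes with 1 direction in every dog. This left 164 higher and 155 lower genes, and the 12 largest on the higher side were ANKRD6, IFNG, SYT11, FES, PTPN13, TSPAN13, IL12RB2, CLNK, LZTFL1, CPLX3, ANXA5 and REPIN1. ANKRD6, an ankyrin repeat protein of Wnt signalling, was at 17.9, 21.3, 16.7 and 30.3 CPM against 4.53, 7.22, 5.59 and 8.92 CPM with no overlap (log2 fold change 1.64, SE 0.27, adjusted p = 1.6e-05). SYT11, a vesicle trafficking protein, was at 44.7, 31.6, 33.5 and 24.8 CPM against 6.09, 11.9, 8.57 and 9.91 CPM (log2 fold change 1.501, SE 0.24, adjusted p = 4.1e-06). The tyrosine kinase FES (1.37, SE 0.25), the phosphatase PTPN13 (1.33, SE 0.22), the tetraspanin TSPAN13 (1.28, SE 0.18) and the immunoreceptor adaptor CLNK (1.25, SE 0.29) followed. LZTFL1 (1.15, SE 0.27) has a single gene between itself and CCR9 in the RefSeq gene table. REPIN1 (1.07, SE 0.23) overlaps 3 other genes there, so the origin of its UMIs is uncertain.

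On the lower side the 12 largest included ITGB1, ACTN1, GPR25, RGS10, ADAM19, CSTA, CCL4, RFLNB, ATXN7L1, CCDC3 and SKIL. ACTN1, an actin crosslinker that also binds integrin tails, was at 8.93, 19.7, 4.18 and 6.89 CPM against 105, 136, 100 and 86.4 CPM (log2 fold change -3.22, SE 0.18, adjusted p = 2.3e-22). RGS10, which dampens G protein signals, was at 17.9, 22.1, 29.3 and 11.03 CPM against 349, 165, 130 and 43.6 CPM (log2 fold change -2.73, SE 0.17, adjusted p = 3.5e-20). Neither gene overlapped between the groups. The protease inhibitor CSTA was at 0, 58.4, 79.5 and 3.45 CPM against 221, 244, 292 and 41.4 CPM, lower in each dog but with overlap (log2 fold change -2.33, SE 0.16). The metalloprotease ADAM19 (-2.35, SE 0.27) and the repressor of TGF-β signalling SKIL (-2.06, SE 0.32) were lower without overlap.

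To see which receptor these differences went with, members were set against CD4 cells that held only CXCR3 or only CCR9, again without KLRK1 and FOXP3. These comparisons share the member sums. Against 1250 CXCR3+ CCR9-negative cells, 50 of 7560 genes (0.661%) were higher and 108 (1.43%) lower. Leaving out dog 1 gave 277 called genes, leaving out dog 2 gave 68 and leaving out dog 4 gave 54, and without the replicate block 30 were called. IFNG was at 40.7 ± 21.5 CPM in members and 12.2 ± 4.98 CPM in the CXCR3+ CCR9-negative cells (log2 fold change 1.32, SE 0.26, adjusted p = 0.0015), IL12RB2 at 103 ± 22.04 and 41.1 ± 24.8 CPM (1.08, SE 0.15, adjusted p = 6.5e-06), and IL18R1 at 161 ± 12.1 and 104 ± 12.1 CPM (0.52, SE 0.11, adjusted p = 0.0028). All 3 were higher in each dog without overlap. TBX21 was at 30.5 ± 10.8 and 32.2 ± 5.10 CPM (log2 fold change 0.01, SE 0.19). Of the Th1 list 17 genes were tested, with 3 higher and the interferon gamma receptor chain IFNGR1 lower (-0.51, SE 0.11). The calls of IL18R1 and IFNGR1 were lost without dog 2 and with DESeq2, and that of IFNGR1 also without dog 4.

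In the same comparison 1 of 15 tested homing genes was higher, ITGB7 (0.41, SE 0.08), and 8 were lower. ITGB1 was at 25.3 ± 14.8 against 401 ± 56.9 CPM (log2 fold change -3.65, SE 0.12, adjusted p = 7.7e-22) and GPR25 at 6.58 ± 7.67 against 154 ± 40.1 CPM (-3.95, SE 0.19, adjusted p = 2.2e-17). The others were ITGA1, CXCR6, GPR15, CCR2, CXCR4 and the lymphoid egress receptor S1PR1. The ITGB7 call was lost without dog 2 and without dog 4. Without dog 4 only 2 genes of the list were lower, and omitting dog 2 or dog 3 left 3 or 4 genes. GZMK (-2.65, SE 0.22) and PDCD1 (-2.53, SE 0.32) were lower by more than against other CD4 cells, a difference that was not tested, and both were higher in members of dog 1. The 6 largest on the higher side were FES, LZTFL1, CLNK, ACOXL, ANKRD6 and REPIN1, of which FES was at 23.9 ± 7.31 against 7.36 ± 1.65 CPM (1.73, SE 0.30, adjusted p = 0.00037), a call lost without dog 4. The 6 largest on the lower side included GPR25, ITGB1, ACTN1, CCL4 and ATXN7L1.

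Against 840 CCR9+ CXCR3-negative cells, 5 of 6890 genes were called (0.0726%), and 370 had an unadjusted p under 0.05. DESeq2 called none, as did the fit without the replicate block, and leaving out dog 2 gave 11. The actin genes ACTG1 (0.39, SE 0.07) and ACTB (0.34, SE 0.06) were higher in members of each dog without overlap. IL7R was lower, at 875 ± 133 against 1128 ± 138 CPM (-0.37, SE 0.06, adjusted p = 0.0033), as was RGS10 (-1.24, SE 0.25, adjusted p = 0.027). IFNG was at 40.7 ± 21.5 against 31.0 ± 15.7 CPM (log2 fold change 0.10, SE 0.21), IL12RB2 at 103 ± 22.04 against 78.1 ± 50.2 CPM (0.08, SE 0.13) and ITGB1 at 25.3 ± 14.8 against 35.3 ± 15.9 CPM (0.14, SE 0.24). For ITGB1 the means and the fit differ in sign, since members were lower in dogs 1 to 3 and higher in dog 4. These genes did not pass, which does not show that the groups were alike.

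Against 236 KLRK1+ CXCR3+ CCR9+ cells, dog 1 was left out because it had a single such cell, and 6 of 5617 genes were called (0.107%) with 295 at an unadjusted p under 0.05. DESeq2 called 2 genes, and leaving out dog 3 or dog 4 gave 12 or 14. CCL5 was at 23.8 ± 20.03 CPM in members and 418 ± 205 CPM in KLRK1+ cells (SD, n = 3 dogs, log2 fold change -4.16, SE 0.18, adjusted p = 6.6e-13), and this call held under all 8 alternatives that tested it. The 601 CCL5 UMIs of the KLRK1+ cells came from 21 of 236 cells. The share of cells with a CCL5 UMI was 6.02%, 6.25% and 4.86% of members and 7.45%, 4.62% and 14.5% of KLRK1+ cells in dogs 2 to 4, so in dogs 2 and 3 the difference in CPM lay in a few cells with many UMIs. CCL4 (-2.49, SE 0.47, adjusted p = 0.029) and C9H17orf64 (-1.37, SE 0.20, adjusted p = 0.0010) were lower in all 3 dogs. IFNG was at 30.4 ± 8.06 against 41.7 ± 13.9 CPM (-0.38, SE 0.26) and did not pass.

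**Figure D4:**
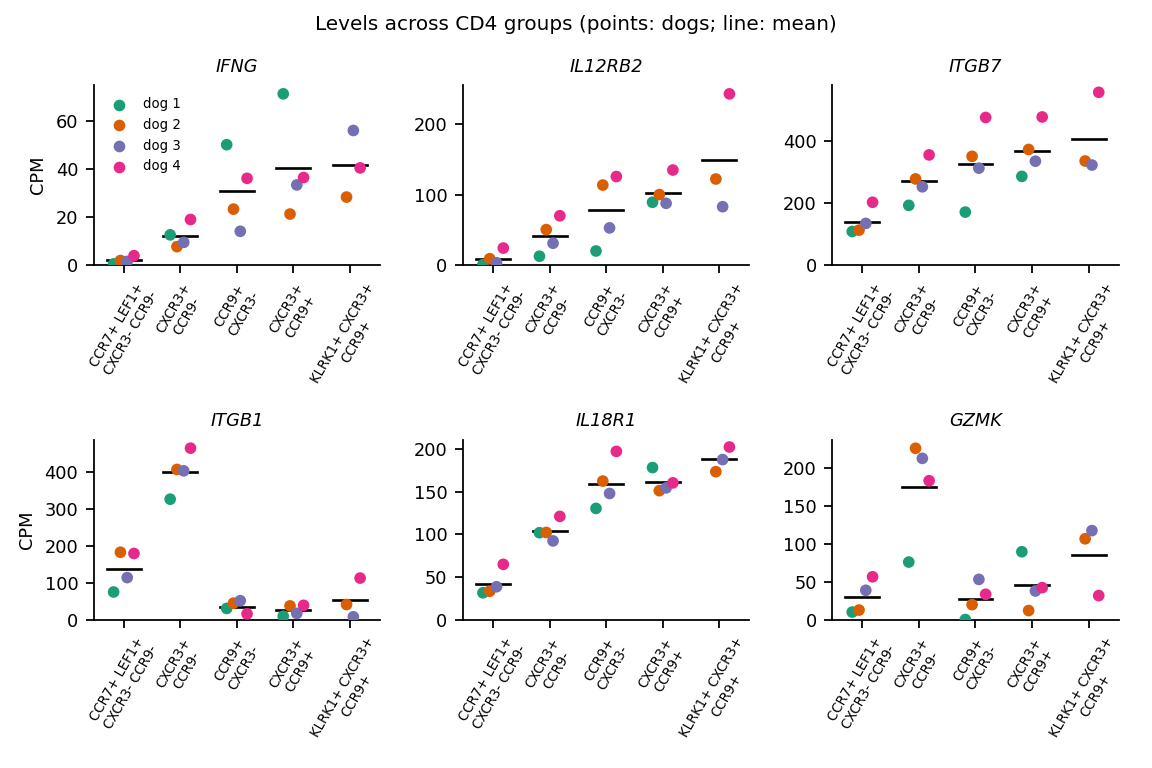
CPM (y axes) of 6 genes in 5 groups of CD4 cells without CD8A (x axes): cells with CCR7 and LEF1 but neither CXCR3 nor CCR9, the 2 single receptor groups, the CXCR3+ CCR9+ cells, and the KLRK1+ CXCR3+ CCR9+ cells. Each point is a dog with at least 10 cells and each line is a mean. ITGB1 was near 401 CPM in CXCR3+ CCR9-negative cells and at 35.3 and 25.3 CPM in the next 2 groups.

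T cell receptors were not used by the rule and were compared next. A clone was taken as cells of 1 dog with the same TRB V gene, J gene and nucleotide junction, the junction being the stretch from the conserved cysteine codon to the phenylalanine or tryptophan codon. Only cells with exactly 1 productive TRB were used, 460 of the 604 members. In dog 1, 5 of 16 such members (31.3%) belonged to clones of 2 or more cells, against 4.69% of other CD4 cells. The shares were 75.1% and 26.4% in dog 2, 45.9% and 22.9% in dog 3, and 85.4% and 44.9% in dog 4. Members were above in 4 of 4 dogs, by 34.7 percentage points ± 12.02 (SD), and the exact two-sided sign-flip permutation test gave p = 0.13, the smallest that 4 dogs can give. Against other CD4 cells without CCR7 the difference was 27.5 points. The share was 54.3% ± 33.9 in CCR9+ CXCR3-negative cells, 28.8% ± 14.7 in CXCR3+ CCR9-negative cells and 13.4% ± 10.3 in cells with neither receptor. By dog the CCR9+ CXCR3-negative share was 9.09%, 77.5%, 47.5% and 83.1%, which was above members in dogs 2 and 3 and below in dogs 1 and 4. It was 90.4% ± 4.68 in KLRK1+ CXCR3+ CCR9+ cells of dogs 2 to 4, where members were at 75.1%, 45.9% and 85.4%.

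**Figure D5:**
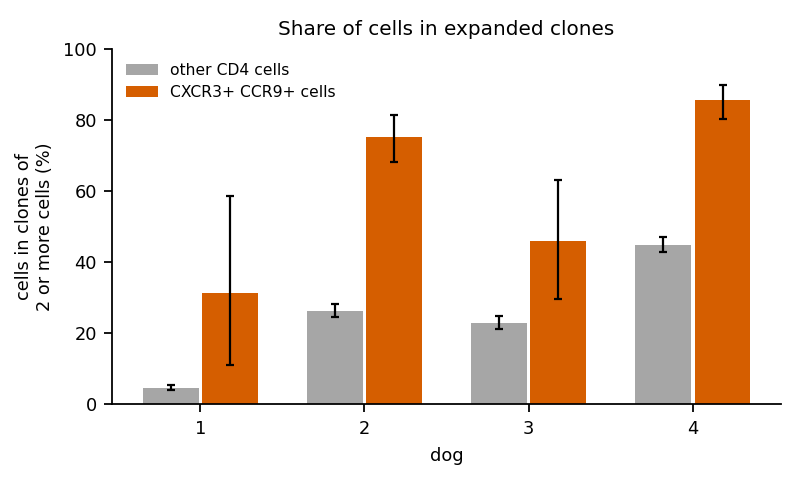
Share of cells in clones of 2 or more cells (y axis, %) in other CD4 cells and CXCR3+ CCR9+ cells of dogs 1 to 4 (x axis), with exact 95% binomial intervals. The share was higher in CXCR3+ CCR9+ cells of each dog, at 31.3%, 75.1%, 45.9% and 85.4%.

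The 460 members fell into 277 clones, of which 168 held 2 or more cells and 62 held 2 or more members. The 168 clones also held 1378 cells that were not members. Of these mates 298 were CCR9+ CXCR3-negative CD4 cells (21.6%), 123 were CXCR3+ CCR9-negative (8.93%), 133 had neither receptor (9.65%), 468 had neither CD4 nor CD8A (33.96%) and 41 had CD8A (2.98%). The rest were 91 KLRK1+ CXCR3+ CCR9+ cells (6.60%) and 224 other CD4 cells with KLRK1 or FOXP3 (16.3%). The other expanded clones with CD4 cells were by definition those without a member. In them the CCR9+ CXCR3-negative share was 6.89%, the share with neither receptor 25.3% and the CXCR3+ CCR9-negative share 7.99%. The share without CD4 and CD8A was 32.6% and the CD8A share 10.7%. The KLRK1+ CXCR3+ CCR9+ share was 2.77% and the share of other cells with KLRK1 or FOXP3 13.7%. CXCR3 and CCR9 chose the clones and also group the mates, so a gap in these shares is partly built in. The shares are a description and were not tested. These shares are pooled over dogs, and dogs 2 and 4 supplied 440 and 791 of the mates. The CCR9+ CXCR3-negative share was 14.3%, 22.7%, 12.1% and 22.8% of mates in dogs 1 to 4 against 1.70%, 10.9%, 3.63% and 8.64% in the other clones, with only 7 mates in dog 1. For a member, 27.5% of its CD4 clone mates in dog 2 were members, against 16.2% for a CD4 cell that was not a member. The shares were 25.02% and 15.1% in dog 4, 6.53% and 3.80% in dog 3, and 0 and 3.53% in dog 1, where only 3 members had such mates. Of the 168 clones of 2 or more cells with a member, 163 also held cells that were not members and 5 held members only.

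The 4 clones with most members were all from dog 4, and the TRB junctions of 3 of them are shown to give the cells of each clone an identity. These 3 held 19 members among 83 cells (TRBV16 and TRBJ2-1), 9 among 37 (TRBV25 and TRBJ1-6) and 9 among 32 (TRBV3-2 and TRBJ2-1). Capitals mark the first and last codon of the junction.
Clone with 19 members: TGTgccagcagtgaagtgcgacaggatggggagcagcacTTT
Clone with 9 members and 37 cells: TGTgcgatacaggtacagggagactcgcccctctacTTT
Clone with 9 members and 32 cells: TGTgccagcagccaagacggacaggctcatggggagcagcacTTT

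The TRA chains of members of dog 4 held a recurrent V and J pair, which was picked after its values were seen and is given as a description. TRAV43-1 joined to TRAJ34 was found in 48 of 231 members of dog 4 with 1 TRA (20.8%), and in none of 16, 202 and 39 members of dogs 1 to 3. In other CD4 cells the shares were 0.924%, 0.485%, 0.704% and 6.55% for dogs 1 to 4. Counting each rearrangement 1 time, the pair made up 11 of 107 different TRA rearrangements in members of dog 4 (10.3%) and 20 of 1365 in its other CD4 cells (1.47%). Of the 134 other CD4 cells of dog 4 with the pair, 118 shared their TRA rearrangement with a member.
Of the 11 rearrangements 10 had a junction of 39 bases. They were identical at 31 positions and differed at 8, which are set in capitals. The same V gene, J gene and length were asked for, so matching ends follow from that choice. These junctions were found with 10 different TRB junctions from 6 TRBV genes. The 6 with most members are shown.
TRA with 19 members: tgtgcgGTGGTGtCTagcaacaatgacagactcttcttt
TRA with 9 members: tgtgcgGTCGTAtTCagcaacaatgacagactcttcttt
TRA with 6 members: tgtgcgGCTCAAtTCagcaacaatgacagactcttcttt
TRA with 4 members: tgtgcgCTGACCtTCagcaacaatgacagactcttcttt
TRA with 3 members: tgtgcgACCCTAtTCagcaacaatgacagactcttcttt
TRA with 2 members: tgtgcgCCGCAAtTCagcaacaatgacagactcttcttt
The first 2 of these belong to the clones with TRBV16 and TRBJ2-1 and with TRBV3-2 and TRBJ2-1 given above. The TRA junctions start alike and end alike, and the capitals lie where V and J were joined.

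Shares of other V genes are given as a description. By the mean over dogs TRBV16 was the most frequent TRB V gene of members. It was at 31.3%, 32.0%, 8.11% and 27.0% of members in dogs 1 to 4 against 16.6%, 18.5%, 21.97% and 20.9% of other CD4 cells, so dog 3 went against the other 3. In members of dog 3, TRBV7 and TRBV15 were more frequent, at 18.9% each. TRAV12 was at 12.5%, 14.4%, 12.8% and 11.7% against 7.90%, 9.61%, 7.57% and 10.5%, above in each dog. TRBV3-1 was below in each dog, at 3.99% ± 3.098 against 7.83% ± 1.04, as were TRAV21 at 0.216% ± 0.433 against 2.77% ± 0.797, TRAV29 at 0.804% ± 0.934 against 3.09% ± 1.07 and TRAV24 at 0.464% ± 0.538 against 2.21% ± 0.723. The last 3 genes were found in 2, 7 and 4 members and were at 0 in dogs 1 and 3, which had only 16 and 39 members with 1 TRA. These shares count cells, so a large clone counts many times, and they were not tested. Median TRB junctions were 15, 14, 14 and 14 codons in members and 14 codons in other CD4 cells of each dog. Of 275 different TRB rearrangements of members 2 occurred in more than 1 dog, and of 268 TRA rearrangements 3 did.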

How the data were processed

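For each library the authors deposited a matrix of UMI counts, not normalized, made with Cell Ranger 5.0.1 against CanFam 3.1, and productive receptor rearrangements. For dog 1 the gene list is longer (27980 lines) than the matrix (20257 rows), and the list of dog 2 was used for all 4 dogs. Cells with 500 to 20000 UMIs and at most 10% mitochondrial UMIs were kept, 31909 of 33125 barcodes. Libraries held 26904346, 35661623, 32637367 and 32773374 UMIs. Doublets were not removed. Sums per dog were fitted with edgeR 4.0.16 in R 4.3.3 (TMM, filterByExpr, dog as block, since both sums come from 1 animal and library), and DESeq2 1.42.0 was an alternative. Sums of under 10 cells were left out. CPM use all UMIs of a sum. The SE of a log2 fold change is its absolute value divided by the square root of the quasi-likelihood F statistic, not a spread over dogs. The script was tested on simulated data. Members and the 13 gene lists were chosen with earlier results of these data known. Named genes were the 12 largest fold changes in each direction (6 in the other comparisons) among called genes with a symbol, at least 20 CPM on the higher side and the same direction in every dog, without receptor segments and mitochondrial genes, beside listed genes. Genes not listed under their symbol, such as KLF2 and NKG7, were not analysed here. Promoter and protein sequences were not used here. Some listed genes and sequences are not reported here.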

Additional observations from a re-analysis of the deposited data

Results flagged for a closer look

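With 4 dogs per group, 53 groups of values were checked for a dog far from the other 3, and 3 were, where chance gives about 1 in 20. The share of TRAV43-1 with TRAJ34 among members was 20.8% in dog 4 and 0 in the others. In other CD4 cells the same pair was at 6.55% in dog 4, against at most 0.924% in the others. LZTFL1 in members was at 53.6 CPM in dog 1, against 18.6 to 22.9 CPM in the other dogs, and the dog 1 value rests on a sum of 111977 UMIs.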

How the results depend on the processing

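Counts of called genes depended on the fit. The sums were paired by dog. Without the replicate block 18 genes were called against other CD4 cells, 30 against CXCR3+ CCR9-negative, 0 against CCR9+ CXCR3-negative and 2 against KLRK1+ cells, and DESeq2 called 124, 34, 0 and 2. Against other CD4 cells, 296 were called with CCR7 at 0 in the comparison and 190 with at least 2 UMIs of each receptor, where only dogs 2 and 4 had enough cells and cells with 1 UMI of either receptor left the comparison. Among cells of 3000 to 6000 UMIs, where dog 1 had too few, 1 gene was called against CCR9+ and 10 against KLRK1+ cells. Without a filter on low counts it was 12 and 22, and without cells with more than 1 TRB 10 against KLRK1+ cells. Leaving out 1 dog gave 145 to 489, 54 to 277, 4 to 11 and 4 to 14 genes in the 4 comparisons. Against other CD4 cells with KLRK1 and FOXP3 at 0, the log2 fold changes of KLRD1 and CCL5 turned from negative to 0.032 and 0.027. No other direction turned among the named and listed called genes. The cause of these changes was not tested. Dog 1 had 19 members, so its values rest on few UMIs. The share of members and the difference in expanded clones kept their direction, at 3.05% to 5.84% and 30.1 to 38.6 points without 1 dog.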
